A study of Mus musculus with 18 samples.

Results

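The comparison described here is that of Esrrb knockdown with control knockdown at day 6 in mouse embryonic stem cells. Its members were chosen by their sample titles: 3 arrays from cells given an shRNA against Esrrb and 3 from cells given an shRNA against GFP, both at day 6, which makes 6 of the 18 arrays of the series. Both groups were E14 cells, an established embryonic stem cell line. They were kept on gelatin, without a feeder layer named in the labels, in medium with fetal bovine serum and LIF, the cytokine that holds mouse embryonic stem cells in the undifferentiated state. Both received the pSUPER.puro plasmid, which makes a short hairpin RNA, by Lipofectamine transfection. They differed in the target of the hairpin: Esrrb in one group, and GFP, a jellyfish protein that mouse cells lack, in the other. Total RNA was turned into biotin-labelled cRNA and hybridised to Illumina mouse whole-genome BeadChips. The other 12 arrays hold the same 2 treatments at days 2 and 4, with 3 arrays each.

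Esrrb is an orphan nuclear receptor that binds DNA as a monomer, without a known natural ligand. In mouse embryonic stem cells it belongs to the naive pluripotency network, with Klf4, Tbx3, Tfcp2l1, Nanog, Oct4 (Pou5f1) and Sox2, and in other tissues its close relatives Esrra and Esrrg act on mitochondrial and energy genes. Cells that leave the naive state pass through a primed, epiblast-like state, and Nodal, FGF, BMP and Wnt signals then guide their entry into the primitive streak and the germ layers.

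Some limits hold for all results. The labels describe 1 shRNA against Esrrb, so loss of Esrrb and any other effect of that hairpin cannot be told apart. Replicate number was also the BeadChip, and each of the 2 groups lay at the same position on all 3 BeadChips, so position and treatment cannot be told apart. The labels call the replicates biological without saying how they were grown, and p-values measure the spread between these samples.

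The 6 arrays were alike in quality: the raw median intensity per array was 62.6 to 76.9, and 40.2% to 42.6% of probes were detected. After normalization the median gene had a standard deviation of 0.0953 log2 units over the 3 control arrays and of 0.130 over the 3 knockdown arrays. Of 7 embryonic stem cell markers on the array, all were detected on every day 6 array, with summed levels of 14150 to 14700 on the linear scale in knockdown and 17390 to 17820 in control. Nanog made up most of the difference between these sums. In knockdown 1 of the markers was called higher (Sall4) and 3 lower (Nanog, Sox2 and Zfp42), while Pou5f1, Tdgf1 and Utf1 were not called. The fibroblast markers Col1a1, Col1a2, Col3a1, Lum and Postn were detected on none of the 6 arrays, and Dcn on 1 knockdown array only. Thy1 (-1.46) and Pdgfrb (-0.40) were detected on all 6 arrays and called lower in knockdown. The summed level of all 8 fibroblast markers was 254.3 to 281.2 in knockdown against 412.4 to 431.5 in control. Thy1, at 6.2 to 6.5 in knockdown and 7.8 to 7.9 in control (log2), made up most of the difference between these sums. Of 4 blood markers, none was detected on all 3 knockdown arrays and 1, Gata1, on all 3 control arrays.

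The targeted transcript was measured first. The Esrrb probe with the higher signal read 11.83, 12.34 and 12.26 (normalized log2 intensity, replicates 1, 2 and 3) in Esrrb shRNA cells and 14.01, 14.04 and 13.98 in GFP shRNA cells. All 3 knockdown arrays lay below all 3 controls, and replicate 1 was the lowest. Esrrb fell to 27.4% of its control level (log2 fold change -1.87 with an SE of 0.11 and n = 3 in each group, adjusted p = 3.58e-11 in limma). A second, dim Esrrb probe read 5.46, 5.44 and 5.35 in knockdown against 5.57, 5.33 and 5.41 in control and did not pass the test (log2 fold change -0.02, adjusted p over all probes 0.969). The difference was -2.72 at day 4 and -2.23 at day 2. It was smaller at day 6 than at day 4 (difference of effects 0.85, limma adjusted p = 7.66e-04), while day 6 and day 2 did not pass that test (adjusted p = 0.0907). In bulk RNA, as here, fewer cells that express a gene and less RNA per cell cannot be told apart.

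At day 6, 5953 of 14540 genes tested were called different at an adjusted p under 0.05, which is 40.9%. Of these, 2877 (19.8% of genes tested) were higher and 3076 (21.2%) lower in knockdown. A change of at least 2-fold was reached by 392 higher genes (2.7%) and 459 lower genes (3.16%). The 3 knockdown and 3 control arrays did not overlap for 7662 genes (52.7%). The median log2 fold change over all genes was -0.005. Higher genes made up 48.3% of the calls here and 54.3% with median centring of the arrays in place of quantile normalization. In the authors' normalized value table, whose rows carry no gene names here, 60.3% of the calls were higher. That share is over the 19467 brightest rows, not genes, taken without the detection filter, so more than the normalization differs. In the plot of change against level, rises and falls were spread over the whole range of levels, and Esrrb was among the brighter genes that fell.

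**Figure D1:**
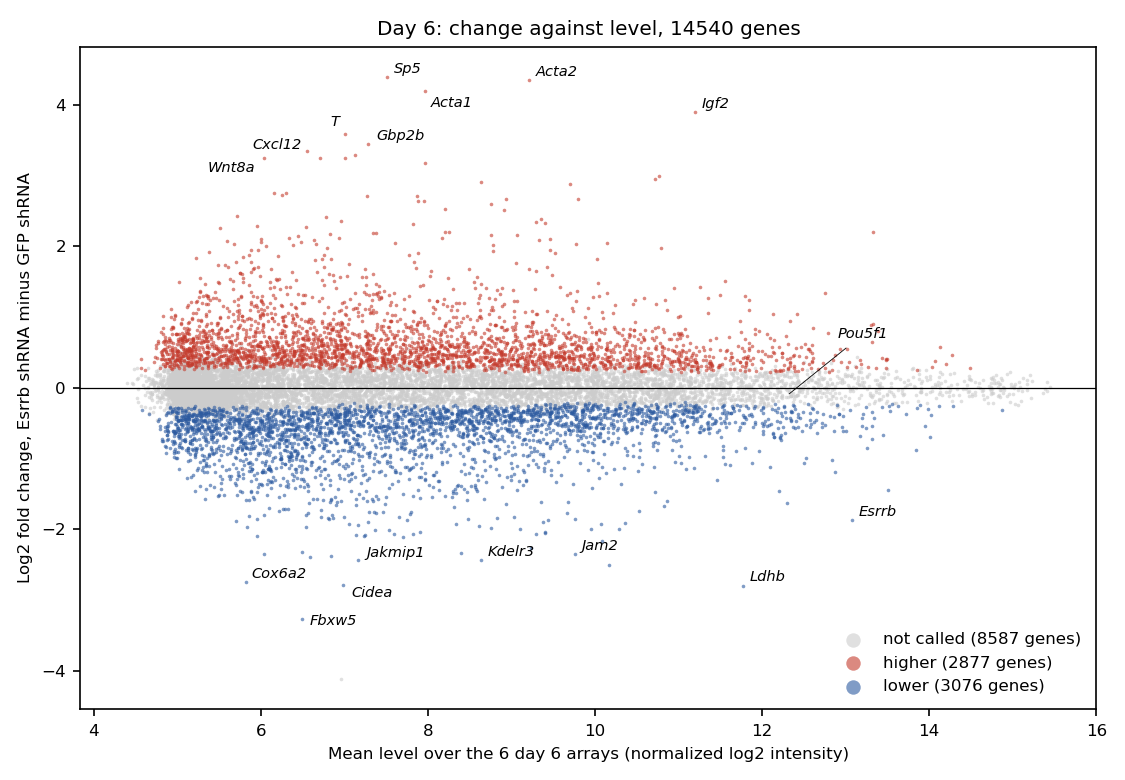
Log2 fold change at day 6 (Esrrb shRNA minus GFP shRNA, vertical axis) against the mean level over the 6 day 6 arrays (normalized log2 intensity, horizontal axis), 1 point per gene. Red points are the 2877 genes called higher, blue points the 3076 called lower and grey points the genes not called. Sp5 lies highest at 4.39, and Esrrb lies at -1.87.

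The gene with the largest rise was Sp5, a zinc finger transcription factor and direct target of Wnt and beta-catenin. Sp5 read 9.57, 9.67 and 9.89 in knockdown and 5.17, 5.29 and 5.49 in control. All knockdown arrays were far above all control arrays, a 21-fold difference (log2 fold change 4.39, SE 0.14, limma adjusted p = 1.09e-14). T, also named Brachyury, the T-box factor of the primitive streak and nascent mesoderm, read 8.80, 8.80 and 8.81 against 5.11, 5.08 and 5.46 and rose 12-fold (log2 3.59, SE 0.12). The 3 knockdown arrays lay closer together than the 3 control arrays, and far above them. Wnt8a, a Wnt ligand of the early streak, read 7.68, 7.56 and 7.75 in knockdown and was detected on no control array, so its rise was at least 6.3-fold (adjusted p = 2.22e-14).

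Muscle actins made up the next group. Acta2, smooth muscle actin, read 11.54, 11.20 and 11.43 against 7.06, 6.96 and 7.09, and Acta1, skeletal muscle actin, read 9.87, 10.19 and 10.12 against 5.88, 6.14 and 5.56. In both genes the groups lay more than 3 log2 units apart with no overlap, and the log2 fold changes were 4.35 (SE 0.15) and 4.20 (SE 0.14). The other 2 Acta2 probes that passed the filter gave smaller fitted differences, 2.35 and 1.37, and were undetected on all 3 control arrays. Among imprinted genes, Igf2, a growth factor expressed from the paternal allele, read 13.44, 12.90 and 13.09 in knockdown and 9.25, 9.34 and 9.15 in control, a rise of 3.89 (SE 0.12, adjusted p = 9.73e-15). Its neighbour H19, a noncoding RNA expressed from the maternal allele, rose by 2.96 (SE 0.13). Every knockdown array was above every control array for both.

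The remaining large rises came from several classes. Cxcl12, a chemokine and the ligand of Cxcr4, read 8.19, 8.19 and 8.30 in knockdown and was undetected on all control arrays, a rise of at least 9.34-fold. Gbp2b, an interferon-inducible GTPase that the array lists as GBP1, rose by 3.44, and Psmb8, a catalytic subunit of the immunoproteasome, by 3.24. Psmb8 has 3 probes, and their differences ran from 0.47 to 3.24, so its size is uncertain. Krt8, a keratin of simple epithelia, read 12.26, 12.34 and 12.18 against 9.15, 9.29 and 9.36 and rose by 3.00 (SE 0.10). The list of the 15 largest rises closed with Slc5a5, the sodium and iodide symporter (3.18), Pou3f1, a POU factor of the primed epiblast (2.91), and Lpar4, a lysophosphatidic acid receptor (2.89). For all 15, the limma adjusted p was at most 1.40e-11. That the groups did not overlap in these 15 genes follows from the rule that chose them.

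**Figure D2:**
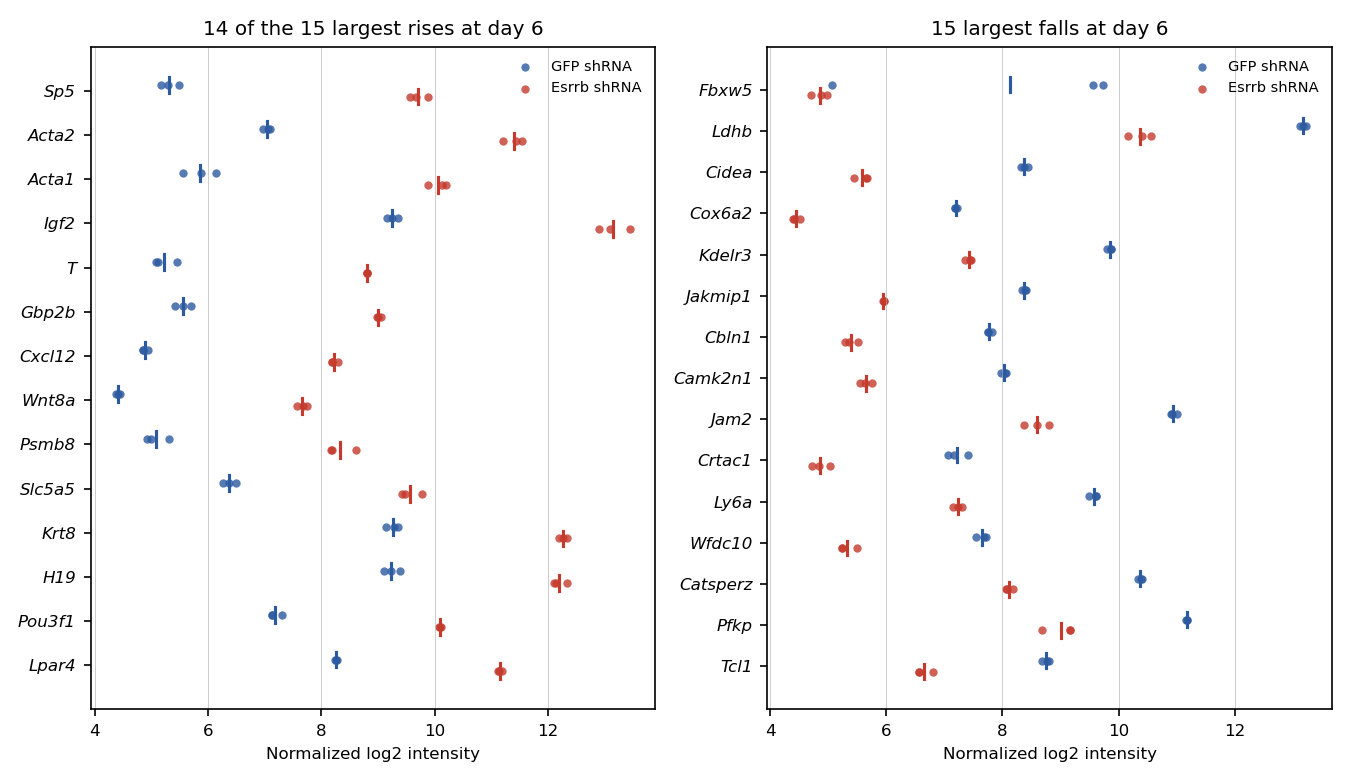
Normalized log2 intensity (horizontal axis) on each of the 6 day 6 arrays for 14 of the 15 largest rises (left) and the 15 largest falls (right). Points are arrays, red for Esrrb shRNA and blue for GFP shRNA, and short bars are group means. The groups do not overlap in any gene shown, which follows from the rule that chose them. For Fbxw5 1 control array, at 5.07, lies beside the knockdown arrays.

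Promoter sequence is shown for 3 of these genes, because Sp5 and Cxcl12 hold the motif bound by the TCF and LEF partners of beta-catenin and Acta1 holds a CArG box, the motif bound by the serum response factor SRF. The windows are from RefSeq (build GRCm38.p6), which gave a promoter for 9271 of the 14540 genes tested, and motifs were searched on both strands from 250 bases before to 50 after the start. The 250 bases before each start are printed 5′ to 3′ on the strand of the gene, with the motif in capitals.
Sp5, chr2:70474673-70474922, plus strand, motif from position -104: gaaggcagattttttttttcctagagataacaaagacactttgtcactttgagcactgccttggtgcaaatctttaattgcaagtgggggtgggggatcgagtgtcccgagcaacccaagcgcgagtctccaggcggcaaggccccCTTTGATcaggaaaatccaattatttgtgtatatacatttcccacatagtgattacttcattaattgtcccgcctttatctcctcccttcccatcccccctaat
Cxcl12, chr6:117168285-117168534, plus strand, motif on the opposite strand from position -163: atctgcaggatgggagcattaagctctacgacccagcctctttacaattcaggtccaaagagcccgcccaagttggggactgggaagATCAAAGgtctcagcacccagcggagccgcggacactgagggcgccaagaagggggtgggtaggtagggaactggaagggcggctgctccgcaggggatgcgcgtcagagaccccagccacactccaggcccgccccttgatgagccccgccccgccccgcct
Acta1, chr8:123894776-123895025, minus strand, motif from position -73: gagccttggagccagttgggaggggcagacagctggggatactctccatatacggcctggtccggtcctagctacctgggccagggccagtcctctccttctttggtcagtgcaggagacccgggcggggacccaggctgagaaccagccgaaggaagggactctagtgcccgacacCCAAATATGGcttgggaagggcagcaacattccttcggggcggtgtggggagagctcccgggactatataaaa
The TCF and LEF motif CTTTGAT was present in 2 of the 11 promoters matched among the 15 largest rises and in 2.99% of all promoters. It was present in 2.67% of promoters of genes at least 2-fold higher and in 2.75% of those at least 2-fold lower. The Esrrb motif TCAAGGTCA was present in 2 of 327 promoters of genes at least 2-fold lower (0.612%). It was present in 1 of 225 promoters of those at least 2-fold higher (0.444%) and in 0.378% of all. Its shorter form AAGGTCA, contained in the longer one, was present in 5.2% of promoters of genes at least 2-fold lower, in 2.67% of those at least 2-fold higher and in 3.8% of all. The CArG box, searched after values were seen, was present in 6 of 20 promoters of the actin and SRF list (Acta1, Actc1, Cnn2, Myl9, Vcl and Srf) and in 1.76% of all promoters. That list was chosen for SRF targets, and Actc1 was not called. The box was present in 4% of promoters of genes at least 2-fold higher and in 1.22% of those at least 2-fold lower. Among the 15 largest rises it was present in 2 of 11 promoters, those of Acta1 and Igf2. These matches describe letters in a window and were not tested.

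The largest fall with tight replicates was that of Ldhb, the lactate dehydrogenase subunit that favours conversion of lactate to pyruvate. Ldhb read 10.16, 10.56 and 10.41 in knockdown and 13.17, 13.12 and 13.23 in control. The groups lay far apart, and Ldhb fell by 2.80 on the log2 scale, to 14.4% of control (SE 0.11, limma adjusted p = 2.54e-13). Cidea, a lipid droplet protein, read 5.66, 5.44 and 5.66 against 8.32, 8.44 and 8.36 and fell by 2.79 (SE 0.15). Cox6a2, the heart and muscle form of a cytochrome c oxidase subunit, read 7.19, 7.21 and 7.18 in control and was undetected on all knockdown arrays, at least 4.73-fold lower. Fbxw5, a substrate adaptor of a ubiquitin ligase, read 4.71, 4.98 and 4.87 against 5.07, 9.57 and 9.73. Its first control array lay beside the knockdown arrays, and its call (log2 -3.27, SE 1.02, adjusted p = 0.0138) was lost without control replicate 2 (adjusted p = 0.0816) or control replicate 3 (0.0872) and without the detection filter (0.0643).

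Genes of the naive state stood among the other large falls: Jam2, a junctional adhesion molecule, fell by 2.36, and Tcl1, a coactivator of the kinase Akt, by 2.11. Further falls were those of Kdelr3, a receptor that retrieves proteins to the endoplasmic reticulum (-2.43), Jakmip1, a microtubule-associated protein (-2.43), and Camk2n1, an inhibitor of the kinase CaMKII (-2.38). Cbln1, a synapse organiser (-2.39), Ly6a, the surface antigen Sca-1 (-2.34), and Pfkp, a phosphofructokinase of glycolysis (-2.17), fell as well. The list closed with Crtac1 (-2.35, detected on 1 of 3 knockdown arrays), Wfdc10 (-2.32) and Catsperz, a subunit of the sperm calcium channel (-2.26). That the groups did not overlap in these 11 genes follows from the rule that chose them.

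The 35 gene lists were then read against the background of 19.8% of genes higher and 21.2% lower. Members named below are those with the lowest adjusted p in each list, up to 4, and any further member was named after its values were seen. A rise or fall is the difference from the day 6 control arrays, and control levels could themselves differ between days. Where a member was undetected in 1 group its fold is given as a bound. A member detected only in the day 6 knockdown arrays passed the detection filter through them alone, so its count as a rise is not independent of the filter. Setting such members to their bound moved the median of the neural list from 0.27 to 0.09, of the primed epiblast list from 0.82 to 0.68 and of the fibroblast list from -0.07 to -0.11, and left the other 32 medians as they were. The plot of all lists runs from simple epithelium genes, with the highest median, to germline genes, with the lowest.

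**Figure D3:**
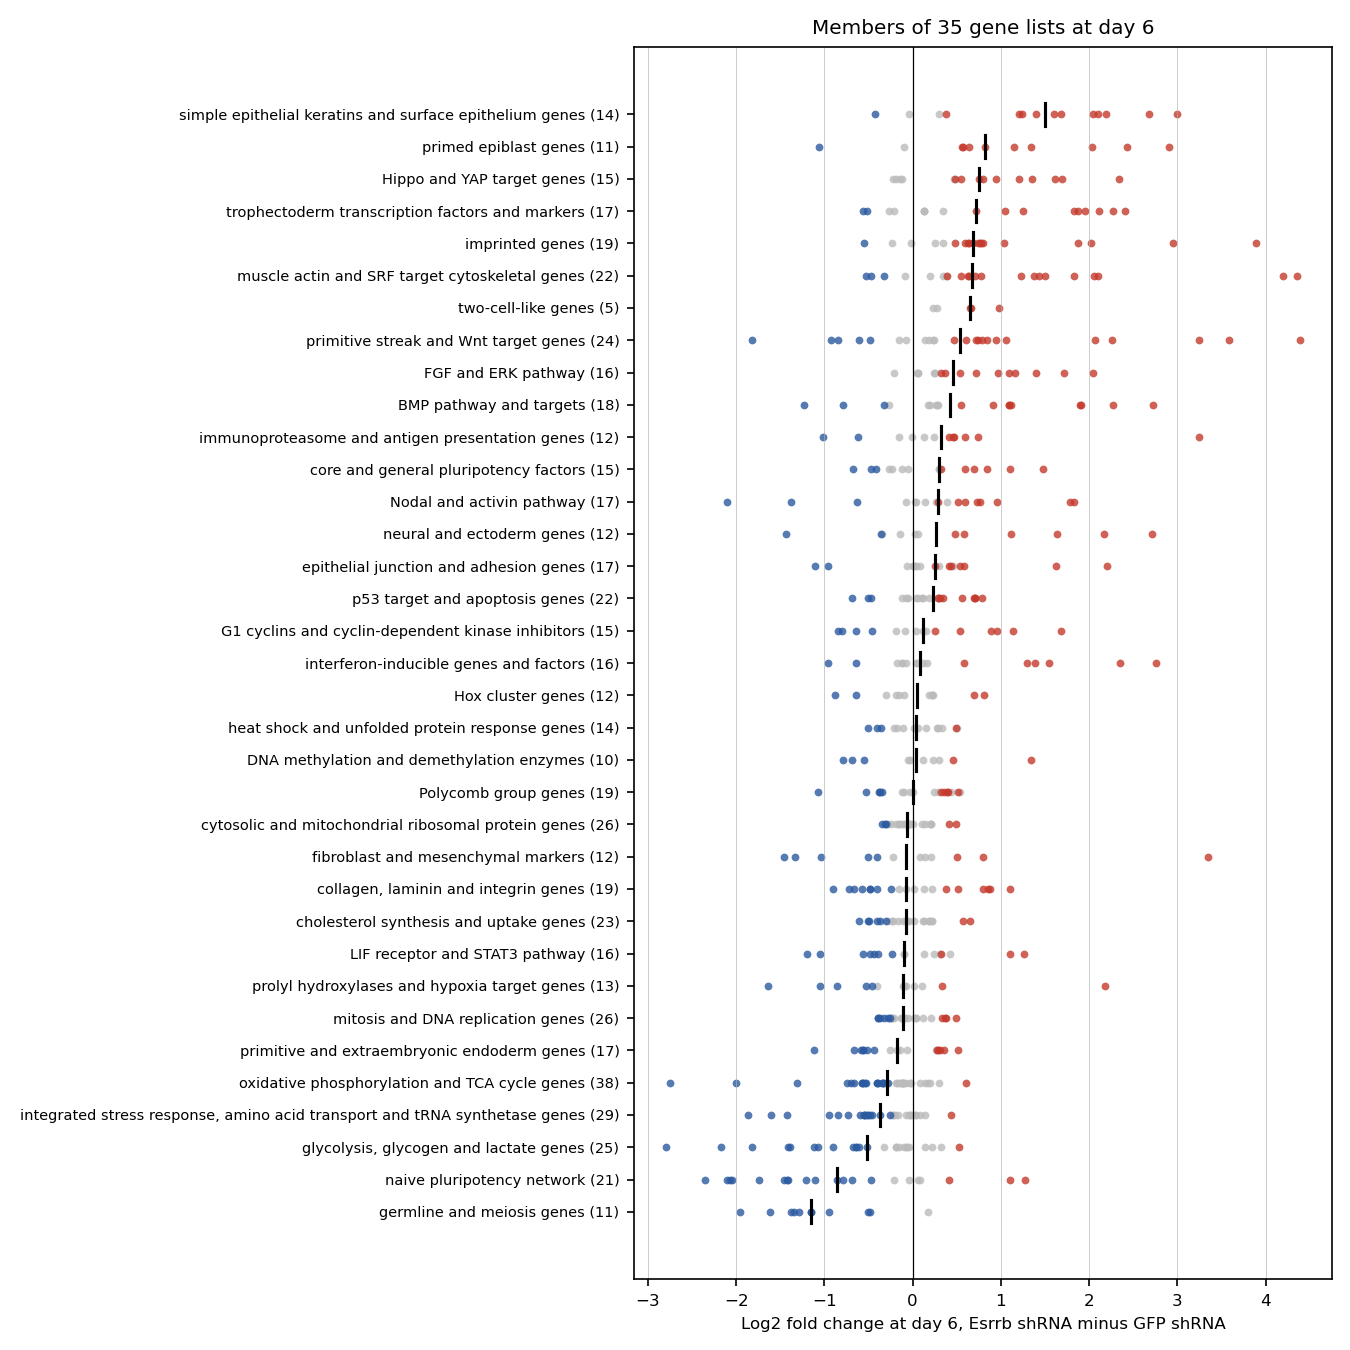
Log2 fold change at day 6 of each tested member (points, horizontal axis) of 35 gene lists (rows, number of tested members in brackets), ordered by list median (black bars). Red members were called higher, blue members lower and grey members were not called. The medians run from 1.50 for simple epithelium to -1.15 for germline genes.

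Of the core pluripotency factors Pou5f1, Nanog and Sox2, the last 2 were lower in knockdown at their brightest probe. Pou5f1 (Oct4) read 12.36, 12.21 and 12.10 in knockdown and 12.33, 12.39 and 12.32 in control. The groups overlapped and the gene was not called (log2 -0.12, SE 0.09, limma adjusted p = 0.293). Nanog read 12.56, 12.72 and 12.66 against 13.08, 13.06 and 13.07, without overlap, and fell by 0.42 (SE 0.10, adjusted p = 0.00177). Its other 2 probes fell by 1.00 and 1.24, while the call of the first was lost with median centring (adjusted p = 0.0648). Sox2 reached at most 8.09 on the knockdown arrays and at least 8.65 on the control arrays, again without overlap, and fell by 0.68 (adjusted p = 6.68e-06). Its second probe did not pass the test (log2 0.19), and the mean of both probes did not either (adjusted p = 0.141).

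Over the whole core list, 6 of 15 tested members rose and 3 fell, with a median of 0.30. Among the members that rose were Lin28a, an inhibitor of let-7 microRNA maturation (1.47), and L1td1, an RNA-binding protein of stem cells (0.85), with Myc (0.69), Trim71 (0.59) and Sall4 (0.33). Lin28a read 9.27, 9.50 and 9.36 in knockdown and 7.93, 8.13 and 7.65 in control. The control arrays were the ones that moved over the days: the difference was 0.20 at day 2 and 0.15 at day 4, and the plot of levels by day shows Lin28a lower in control cells at day 6. Zfp42 (Rex1) was the third member that fell (-0.47). With median centring 1 member of the list fell, and without background correction 5 did.

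The naive network shifted down: 14 of 21 tested members fell, 3 rose, and the median was -0.85. Besides Jam2 and Tcl1, Tbx3, a T-box repressor that sustains the naive state, read 8.27, 8.41 and 8.10 against 10.44, 10.34 and 10.21 and fell by 2.07 (SE 0.11). Cobl, an actin nucleator, fell by 2.05. Klf4 (-1.10), Klf5 (-0.69), Tfcp2l1 (-1.46), Fgf4 (-1.74), Zfp57 (-1.43), Manba (-1.41) and Tet2 (-0.79) fell too, while Klf2 (0.09) and Nr5a2 (-0.05) were not called. The 3 members that rose were Dppa3 (Stella, 1.27), Gbx2 (1.10) and Tdh (0.41). Gbx2, a homeobox gene induced by LIF, read 12.35, 12.49 and 12.36 against 11.24, 11.35 and 11.30. Its control arrays read 12.73, 12.62 and 12.54 at day 2, and its knockdown effect was -0.61 at day 4.

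The LIF and STAT3 list was mixed, with 3 of 16 members higher, 7 lower and a median of -0.10. Socs3, the feedback inhibitor of the LIF receptor, read 10.31, 10.53 and 10.47 against 11.61, 11.48 and 11.37 and fell by 1.05 (SE 0.09, limma adjusted p = 2.02e-08). Ier3, an immediate early gene, fell by 1.20. Socs2, another member of the same inhibitor family, rose by 1.27, and Gbx2 stands in this list too. Lifr (-0.10) and Stat3 (-0.09) were not called.

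The primed epiblast list shifted up, with 9 of 11 tested members higher, 1 lower and a median of 0.82. Pou3f1 read 10.10, 10.12 and 10.07 in knockdown and 7.30, 7.13 and 7.13 in control, so that the groups lay well apart. On all 9 control arrays Pou3f1 was below the 9 knockdown arrays, and its control level was lowest at day 6. Fgf5, a ligand that marks the postimplantation epiblast, read 6.77, 6.95 and 7.06 in knockdown and was undetected in control, a rise of at least 3.78-fold (adjusted p = 6.58e-11). Fst (follistatin), which binds activin, rose by 2.03 (SE 0.11), while the DNA methyltransferase Dnmt3b, which sets new methyl marks, rose by 1.34 (SE 0.10). Lef1, a partner of beta-catenin undetected in control, was at least 1.61-fold higher. Zic2 (0.82), Otx2 (0.64), Dusp6 (0.57) and Epha2 (0.56) rose as well. The member that fell was Etv4 (-1.06), an ETS factor downstream of FGF.

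Among primitive streak genes and Wnt targets, 13 of 24 tested members rose and 5 fell (median 0.53). Of the 36 members of the list, 34 were on the array, and those not tested did not pass the detection filter. The median was 0.20 over the 34 without that filter and 0.26 without background correction. Beyond Sp5, T and Wnt8a, Evx1, a homeobox gene of the posterior streak, read 6.61, 6.77 and 6.57 and was undetected in control, a rise of at least 3.12-fold. Fgf8, a ligand of the gastrulating embryo, read 6.88, 6.37 and 6.67 and was likewise undetected in control, a rise of at least 3.09-fold. Fgf8 passed the detection filter only through the day 6 knockdown arrays, so its place among the rises is not independent of the filter. At day 2 Evx1 read 7.24, 7.35 and 7.25 in knockdown and 6.53, 6.75 and 6.43 in control, so both groups were lower at day 6. Rises of 1.06 or less were seen for the ligands Wnt5a (1.06) and Wnt3 (0.74), for the receptor Fzd7 (0.84), for the cyclin Ccnd1 (0.79), for Eomes (0.71) and for the feedback inhibitors Axin2 (0.60) and Notum (0.46). Rspo3, which enhances Wnt signals, was undetected in control and at least 1.68-fold higher. The members that fell were Sfrp1, a secreted Wnt inhibitor (-1.82), Nkd2 (-0.93), Cdx1 (-0.84), Tbx6 (-0.60) and Gsc (-0.48). Of the 6 mesoderm and streak markers, Mixl1 and Mesp1 were detected on none of the 6 arrays and Msgn1 on 1 array of each group. The summed level of these 6 markers was 657.8 to 699.2 in knockdown and 254.4 to 288.5 in control. T, at 8.80 to 8.81 on the log2 scale, made up most of the knockdown sum. The part of these markers in the result was not tested.

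The Nodal and activin list had 8 of 17 members higher and 3 lower (median 0.29). Lefty1, a secreted inhibitor and target of Nodal, read 10.88, 10.98 and 10.95 against 9.15, 9.02 and 9.18, without overlap, and rose by 1.82 (SE 0.10, limma adjusted p = 9.18e-12). At day 2 Lefty1 read 12.04, 12.06 and 12.07 in knockdown and 10.46, 10.88 and 10.59 in control, so both groups were lower at day 6. Lefty2 (0.73) and Nodal itself (0.29) rose less. Inhbb, which encodes the beta B subunit of activin, read 5.12, 4.88 and 4.71 against 6.98, 7.01 and 7.03 and fell by 2.10 (SE 0.12). Inhbb was detected on 1 of 3 knockdown arrays, so the size of its fall is uncertain. Pcsk6, a convertase that cleaves the Nodal precursor, fell by 1.38, and the receptor Acvr1b by 0.63.

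In the BMP list 9 of 18 members rose and 3 fell (median 0.42). Of the Id genes, direct BMP targets that block basic helix-loop-helix factors, 3 rose and Id4 was not called (0.18): Id1 read 10.59, 10.30 and 10.50 against 8.37, 8.67 and 8.66 (log2 1.90, SE 0.10), Id3 read 8.86, 8.78 and 8.88 against 7.03, 6.83 and 6.94 (log2 1.91, SE 0.09), and Id2 rose by 1.09. The homeobox gene Msx1 rose by 2.73 from a level detected on 1 of 3 control arrays, and Gata3 by 2.27. The ligands Bmp7 (-1.23) and Bmp4 (-0.79) were among the members that fell. Id1, Id2 and Id3 thus lay on the other side of 0 from Bmp4 and Bmp7. At day 2 Id1 read 11.19, 11.37 and 11.37 in knockdown and 10.31, 10.46 and 10.20 in control, so both groups were lower at day 6.

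In the FGF and ERK list 10 of 16 members rose and 0 fell in limma, also 0 at an unadjusted p under 0.05 (median 0.45). Dusp4, a phosphatase that acts on ERK, read 9.99, 9.94 and 10.02 against 8.44, 8.59 and 8.72 and rose by 1.40 (SE 0.09, limma adjusted p = 1.27e-10). Fgfr2, an FGF receptor, read 10.32, 10.20 and 10.34 against 8.57, 8.51 and 8.64 and rose by 1.71. Fgfbp1, which releases FGF from matrix, rose by 2.04, and Il17rd (Sef), a feedback inhibitor, by 1.16. Spry4 (0.05), Egr1 (0.24) and Fgfr3 (0.06) were not called. FGF pathway genes placed in other lists went both ways, as given above: Fgf4 and Etv4 fell, and Fgf5, Fgf8 and Dusp6 rose. The heat map of these lists shows the same direction on all 3 knockdown arrays for the genes with large changes.

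**Figure D4:**
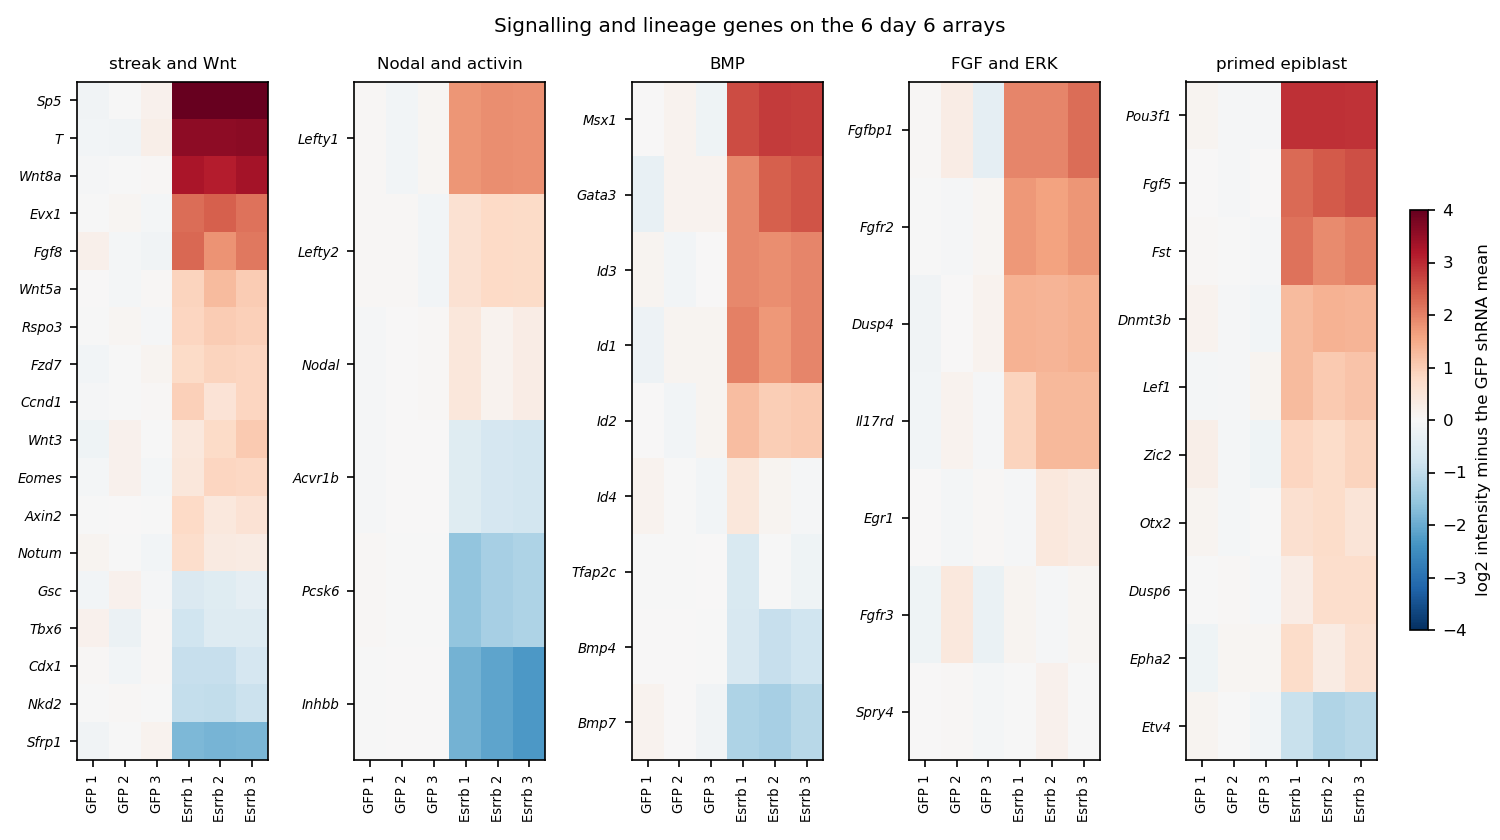
Level of the members named in the text (rows) on the 6 day 6 arrays (columns) as log2 intensity minus the mean of the 3 GFP shRNA arrays, for 5 gene lists. Red is higher and blue lower than the control mean, and the colours end at a difference of 4 in either direction, so Sp5 (mean difference 4.39) is at the end of the scale. Sp5, Msx1 and Pou3f1 head their lists, and Sfrp1, Inhbb, Bmp7 and Etv4 stand last in theirs.

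Trophectoderm factors and markers rose in 9 of 17 tested members and fell in 2 (median 0.71). Cdx2, the homeobox factor that specifies trophectoderm and also acts in posterior mesoderm, read 7.92, 7.94 and 8.10 against 5.62, 5.65 and 5.45 and rose by 2.41 (SE 0.10, limma adjusted p = 5.74e-13). Gata2 read 7.87, 8.23 and 7.88 against 5.88, 5.81 and 5.96 and rose by 2.11, and Gata3 rose as given above. The X-linked homeobox gene Rhox9 rose by 1.95, and the imprinted gene Peg10, which placenta formation requires, by 1.87. Peg10 was detected on 1 of 3 control arrays, so the size of its rise is uncertain. Tead4 (-0.56) and Rhox5 (-0.51) fell. Of the 6 trophoblast markers, Hand1 was detected on none of the 6 arrays, Elf5 on 1 array of each group, and Tfap2c was not called (-0.27). The summed level of these markers was 3212 to 4684 in knockdown and 4310 to 4398 in control, so the groups overlapped. Tfap2c, at 11.41 to 12.01 in knockdown and 12.01 to 12.05 in control (log2), made up most of both sums. The rises of Cdx2 and Gata3 hardly show in these sums. The part of these markers in the result was not tested.

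Simple epithelium genes had the highest median of all lists, 1.50, with 11 of 14 tested members higher and 1 lower. The keratin pair of simple epithelia rose together: Krt18, the partner of Krt8, read 10.98, 11.20 and 11.22 against 8.43, 8.47 and 8.48 and rose by 2.67 (SE 0.10, limma adjusted p = 5.54e-14). Krt7 rose by 2.05 and Anxa3, an annexin, by 2.10. The desmosome protein Dsp (1.68) and the epithelial factor Grhl2 (2.19) rose as well, and Krt42 (-0.43) fell. In the list of epithelial junctions and adhesion 7 of 17 rose and 2 fell (median 0.26). Esrp1, an epithelial splicing factor, rose by 2.20, and Cldn7, a claudin of tight junctions, by 1.63. E-cadherin (Cdh1) rose by 0.58. The members that fell were Tjp3, a tight junction scaffold (-1.11), and Icam1, an adhesion receptor (-0.96).

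Genes of muscle actin and of the SRF programme rose in 15 of 22 tested members and fell in 3 (median 0.68). After Acta1 and Acta2, Tpm1, a tropomyosin, read 10.49, 10.12 and 10.51 against 8.19, 8.37 and 8.27 and rose by 2.09 (SE 0.11). Tagln, a calponin-like protein of smooth muscle, read 6.04, 6.25 and 6.15 and was undetected in control, a rise of at least 2.2-fold. Myl9 (2.06), Zyx (1.50) and Cnn2 (1.23) rose too, while Cnn3 (-0.32) fell. Des and Mylk, undetected in knockdown, were at least 1.3-fold and 1.23-fold lower. Of the 6 smooth muscle markers, Cnn1 was undetected on all 6 arrays. Myh11 was undetected on all 3 knockdown arrays, detected on all 3 control arrays and called lower. Actg2 (0.38) and Lmod1 (0.34) were not called. The summed level of the 6 markers was 2565 to 3177 in knockdown and 258.9 to 298.9 in control. Acta2, at 11.20 to 11.54 on the log2 scale, made up most of the knockdown sum. The part of these markers in the result was not tested.

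In the list of Hippo genes and targets of YAP, the effector of that pathway, 10 of 15 tested members rose (median 0.75). In limma 0 fell, with 1 (Birc5, -0.22) lower at an unadjusted p under 0.05. The list holds pathway members such as Yap1, Tead1, Tead2 and Nf2 besides YAP targets, so its counts do not measure YAP targets alone. Ccn2 (Ctgf), a matrix-associated protein, read 10.60, 10.49 and 10.30 against 8.17, 8.16 and 8.05 and rose by 2.34 (SE 0.13, limma adjusted p = 1.42e-11). Its relative Ccn1 (Cyr61) rose by 1.61, the phosphatase Ptpn14 by 1.70 and tissue factor F3 by 1.35. Leaving out knockdown replicate 1, omitting background correction or averaging probes gave 1 lower member.

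Collagen, laminin and integrin genes went both ways, with 6 of 19 higher and 8 lower (median -0.07). Itgb5 (1.10), Itga3 (0.87), Lama5 (0.80) and Col18a1 (0.85) rose. The prolyl and lysyl hydroxylases that modify collagen fell: P4ha1 by 0.90, P4ha2 by 0.67 and Plod2 by 0.58. In the fibroblast list 3 of 12 rose and 5 fell (median -0.07). Thy1, a surface antigen, read 6.50, 6.21 and 6.35 against 7.78, 7.80 and 7.86 and fell by 1.46 (SE 0.10), and Fbln2 (-1.34) and Loxl1 (-1.04) fell with it. Cxcl12 is the fourth named member, and it rose as given above. The part of fibroblast RNA in these falls was not tested.

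Of 19 imprinted genes tested, 14 rose and 1 fell (median 0.68). The falls numbered 2 without knockdown replicate 3 or without background correction. Besides Igf2, H19 and Peg10, Peg3, a paternally expressed zinc finger gene, read 9.85, 9.72 and 9.81 against 7.86, 7.73 and 7.73 and rose by 2.02 (SE 0.11, limma adjusted p = 7.56e-12). Genes expressed from either parental allele were among those that rose: the paternally expressed Mest (0.74), Ndn (0.76), Snrpn (0.80) and Kcnq1ot1 (1.03), and the maternally expressed Cdkn1c (0.63) and Meg3 (0.48). Igf2r, the maternally expressed receptor that clears Igf2, fell by 0.55.

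The neural and ectoderm list had 6 of 12 members higher, 2 lower and a median of 0.27, and 12 of its 24 members were left out by the detection filter. Gap43, a growth cone protein, read 9.06, 9.32 and 9.31 against 6.65, 6.49 and 6.42 and rose by 2.71 (SE 0.10, limma adjusted p = 4.64e-14). Sox11 rose by 2.17, while Crabp1, a retinoic acid binding protein, fell by 1.43. Nrcam, a neural adhesion molecule undetected in control, was at least 1.4-fold higher. Of 6 neural markers, Sox1 was detected on none of the 6 arrays, and the summed level was 276 to 306.5 in knockdown and 211.8 to 220.5 in control. Their part in the result was not tested. Without knockdown replicate 1 or 3, with median centring or with averaged probes, 1 member of this list fell.

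Primitive and extraembryonic endoderm genes showed 5 of 17 higher and 7 lower (median -0.18). Gata6, the factor that starts primitive endoderm, read 7.15, 7.07 and 7.35 against 8.35, 8.37 and 8.22 and fell by 1.12 (SE 0.12, limma adjusted p = 1.61e-07). Amn (-0.67) and Hnf4a (-0.56) fell and Dab2 (0.52) rose. The count of 5 rises dropped to between 1 and 3 when knockdown replicate 1, 2 or 3 or control replicate 2 or 3 was left out. The 6 endoderm markers summed to 930.8 to 965.5 in knockdown and 955.1 to 980.2 in control, with Sox7 and Afp detected on none of the 6 arrays. Of the 30 Hox genes, 12 were tested, 2 rose and 2 fell (median 0.05). Hoxc9 was at least 1.28-fold higher, and Hoxb13 (-0.88) and Hoxb7 (-0.64) fell.

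Genes of energy metabolism were called lower more often than higher. In the list of glycolysis, glycogen and lactate genes 13 of 25 members fell and 1 rose (median -0.52). After Ldhb and Pfkp, Pygl, the liver glycogen phosphorylase, read 6.35, 5.91 and 6.00 against 7.90, 7.96 and 7.87 and fell by 1.82 (SE 0.11, limma adjusted p = 1.28e-10). Aldoc, a brain-type aldolase, fell by 1.12, and Hk1 (-1.41), Eno2 (-1.38) and Gys1 (-1.07) fell as well. The abundant forms Ldha (-0.04), Gapdh (-0.15) and Pkm (-0.19) were not called. The single rise was that of Gbe1, the glycogen branching enzyme, undetected in control and at least 1.13-fold higher. The number of rises was 2 without knockdown replicate 3 or control replicate 1, and 0 with a stricter detection filter.

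In the list of oxidative phosphorylation and the TCA cycle 18 of 38 members fell and 1, Mdh2 (0.61), rose (median -0.29). No member rose without knockdown replicate 2, without control replicate 1 or without the detection filter, so the call of Mdh2 was lost there. Cox7a1, a muscle-type subunit of cytochrome c oxidase, read 8.03, 8.23 and 8.03 against 10.06, 10.12 and 10.12 and fell by 2.00 (SE 0.09). Together with Cox6a2, this put the tissue-specific subunits of that enzyme at the lower end, while Cox4i1 (-0.18) and Cox7c (-0.11) were not called. The TCA enzyme Idh2 (-1.31) fell. With median centring 11 members of this list fell in place of 18.

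Genes of the integrated stress response, amino acid transport and tRNA charging fell in 16 of 29 members and rose in 1, Slc38a2 (0.43), with a median of -0.36. Ddit3 (CHOP), a stress-induced transcription factor, read 8.42, 8.47 and 8.64 against 10.35, 10.54 and 10.23 and fell by 1.87 (SE 0.11, limma adjusted p = 2.64e-11). Nupr1, another stress-induced regulator, fell by 1.60, the glutamine transporter Slc1a5 by 1.43 and the pseudokinase Trib3 by 0.95. Atf4, the factor that drives this programme, was not called (0.02). With median centring 12 members fell.

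Hypoxia genes gave 2 of 13 higher and 5 lower (median -0.11). Vegfa, the angiogenic growth factor, fell by 1.64 (SE 0.11), and Egln3, a prolyl hydroxylase that marks HIF for destruction, by 1.05. Hif1a was undetected on all knockdown arrays and at least 1.52-fold lower. Car4, a membrane carbonic anhydrase, rose by 2.17, and Kdm3a by 0.34, and 1 member rose without knockdown replicate 1 or control replicate 1 or 2. The median was -0.21 without knockdown replicate 1, -0.17 without knockdown replicate 2, -0.24 without control replicate 1, -0.20 without control replicate 3 and -0.25 with a stricter filter. Cholesterol genes gave 2 of 23 higher and 6 lower (median -0.08), with Ebp (0.65) rising and Pmvk (-0.60), Insig1 (-0.51) and Dhcr7 (-0.36) falling. Heat shock and unfolded protein genes gave 1 of 14 higher, Dnajb1 (0.50), and 3 lower, Hspb8 (-0.50), Xbp1 (-0.41) and Pdia4 (-0.36), with a median of 0.04. The last 2 calls were lost with median centring (adjusted p = 0.0905 and 0.102), and 2 members were higher without knockdown replicate 1 or control replicate 2 or in a fit of the day 6 arrays alone, and 3 with the BeadChip as a block.

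Genes of mitosis and DNA replication changed about as often as all genes tested: 4 of 26 rose and 6 fell (median -0.11). Tyms (0.38) and Cdc6 (0.37) rose and Top2a (-0.39) and Cenpa (-0.37) fell. Mki67 (-0.11) was not called. With median centring 2 rose and 1 fell, and without control replicate 1 2 rose and 3 fell, which included the loss of Cenpa (adjusted p = 0.0745). Rises also numbered 2 without knockdown replicate 2, control replicate 2 or the detection filter.

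Regulators of the G1 phase gave 6 of 15 higher and 4 lower (median 0.11). Ccnd2, a D-type cyclin, read 9.38, 9.35 and 9.28 against 7.82, 7.61 and 7.53 and rose by 1.68 (SE 0.11, limma adjusted p = 3.46e-10). Ccne2 (1.13), the E2F factor E2f3 (0.88) and the inhibitor Cdkn2b (0.95) rose, while E2f1 (-0.65), Ccnd3 (-0.80) and the inhibitors Cdkn2c (-0.85) and Cdkn2d (-0.46) fell. In the p53 list 8 of 22 rose and 3 fell (median 0.23). Plk2 (0.78), the death receptor Eda2r (0.69) and Zmat3 (0.55) rose and Gadd45a (-0.69) fell. Cdkn1a, the best known target of p53, was not called (-0.12), nor was Trp53 itself (-0.08).

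Immunoproteasome and antigen presentation genes gave 6 of 12 higher and 2 lower (median 0.33). Psmb10 (0.74) and the proteasome activator Psme1 (0.59) rose with Psmb8, while Psmb9 (-0.61) and H2-T23 (-1.01), a nonclassical class I molecule, fell. H2-K1 (0.12), H2-D1 (-0.16) and B2m (0.25) were not called. Interferon-inducible genes gave 6 of 16 higher and 2 lower (median 0.08). Irgm1, a GTPase of the interferon response, read 7.58, 7.52 and 7.51 and was undetected in control, at least 5.78-fold higher. Gbp3 rose by 2.35, Ifitm3 by 1.29 and the factor Irf1 by 1.38. Irf7 (-0.12) and Irf9 (0.05) were not called, and Stat2 (-0.96) fell.

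Germline and meiosis genes had the lowest median of all lists, -1.15: 10 of 11 tested members fell and 0 rose in limma, also 0 at an unadjusted p under 0.05. Tuba3a, a testis-type tubulin, read 7.76, 7.55 and 7.61 against 9.68, 9.63 and 9.48 and fell by 1.95 (SE 0.10, limma adjusted p = 2.95e-12). Taf7l (-1.38), Tex11 (-1.35) and Mov10l1, a helicase of the piRNA pathway (-1.29), fell as well. The one member not called was Rnf17 (0.18). Of the 21 members of the list, 20 were on the array and 9 of those did not pass the detection filter. Two-cell-like genes had 3 of 5 members higher and 0 lower in limma, also 0 at an unadjusted p under 0.05 (median 0.65), namely Arg2 (0.98), Zfp352 (0.66) and Tcstv3 (0.65). Tmem92 was not called (0.27, adjusted p = 0.0569).

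The DNA methylation list had 2 of 10 members higher and 3 lower (median 0.04). Dnmt3b and Mbd3 (0.46) rose, and the demethylating enzymes Tet1 (-0.55) and Tet2 (-0.79) fell with Gadd45a. Polycomb genes gave 5 of 19 in each direction, with a median of 0.0024. Phc2 (0.51) rose and Phf19 (-1.08), Ezh2 (-0.53) and Pcgf1 (-0.37) fell. With median centring 3 fell. Without knockdown replicate 2 or control replicate 1, 3 rose, and in a fit of the day 6 arrays alone 8 rose. Ribosomal protein genes stayed close to 0, with 2 of 26 higher, 3 lower and a median of -0.06. Rps19 (0.50) and Rpl4 (0.41) rose and Mrpl28 (-0.35), Rpl22 (-0.31) and Rpl13 (-0.31) fell. These 3 falls were each lost under some setting, Rpl13 without knockdown replicate 1 or control replicate 1 or 2 and Rpl22 without knockdown replicate 3, and 1 member rose when any 1 of the 6 arrays or the detection filter was left out. Falls numbered 1 with median centring and 5 with averaged probes, without background correction or with the BeadChip as a block, and rises 4 without background correction.

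Whether the effect at day 6 differed from that at earlier days was tested as a difference of effects, each against the control arrays of its own day. Between day 6 and day 4 the effect differed for 2081 genes (14.3%): it was more positive at day 6 for 899 (6.18%) and more negative for 1182 (8.13%). More positive genes made up 43.2% of these calls, and 27.7% with median centring. Against day 2 the effect differed for 3664 genes (25.2%), more positive for 1644 (11.3%) and more negative for 2020 (13.9%). For comparison, 3399 genes (23.4%) were called at day 4 and 1765 (12.1%) at day 2.

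Streak genes were among those with the largest gain between day 4 and day 6. The effect on T was 0.57 at day 2, 0.15 at day 4 and 3.59 at day 6, a difference of 3.43 between day 6 and day 4 (limma adjusted p = 3.82e-10). Sp5 went from 1.03 at day 4 to 4.39 at day 6 (difference 3.37, adjusted p = 1.75e-09), and its level in control cells was lower at day 6 than on either earlier day. Fgf8 was detected in neither group at days 2 and 4 and only in knockdown at day 6, at least 3.09-fold higher. Wnt8a was undetected in control on all days, and its rise was at least 1.62-fold at day 4 and at least 6.3-fold at day 6. Ccnd2 turned from -0.35 at day 4 to 1.68 at day 6 (difference 2.03). Its level at day 6 was below that of the earlier days in both groups, and further below in control.

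The most negative differences against day 4 were in Cox6a2 (-1.87), Pygl (-1.71), the axonemal dynein gene Dnaic1 (-1.70), Fam183b (-1.69) and Myl3, a myosin light chain (-1.66). The control mean of Pygl was 5.49, 6.82 and 7.91 at days 2, 4 and 6, and its knockdown mean 5.32, 6.71 and 6.09. Cox6a2 was undetected in knockdown on all days, and it was at least 1.52-fold lower than control at day 4 and at least 4.73-fold lower at day 6. Myl3 was undetected in control on both days and higher in knockdown, at least 4.71-fold at day 4 and at least 1.6-fold at day 6. Differences of effect given for Fgf8, Wnt8a, Cox6a2, Myl3, Acta1 and Acta2 are fitted values that rest in part on undetected groups, and they are no bounds.

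Against day 2, large positive differences were seen in Acta1 (4.03), Sp5 (3.56), Acta2 (3.28) and T (3.01). Acta1 was detected in neither group at day 2, and at day 4 it was undetected in control and at least 8.28-fold higher in knockdown. Acta2 was undetected in control at day 2 and at least 1.65-fold higher in knockdown. The most negative differences were in Cox6a2 (-2.94), Egln3 (-2.40), Ddit3 (-2.37), Fcgrt, a receptor for immunoglobulin G (-2.26), and the meiotic kinase Aurkc (-2.19). The effect on Egln3 was 1.34 at day 2 and -1.05 at day 6, so it changed sign, and that on Ddit3 went from 0.51 to -1.87. The plot of levels by day shows the arrays of 12 genes.

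**Figure D5:**
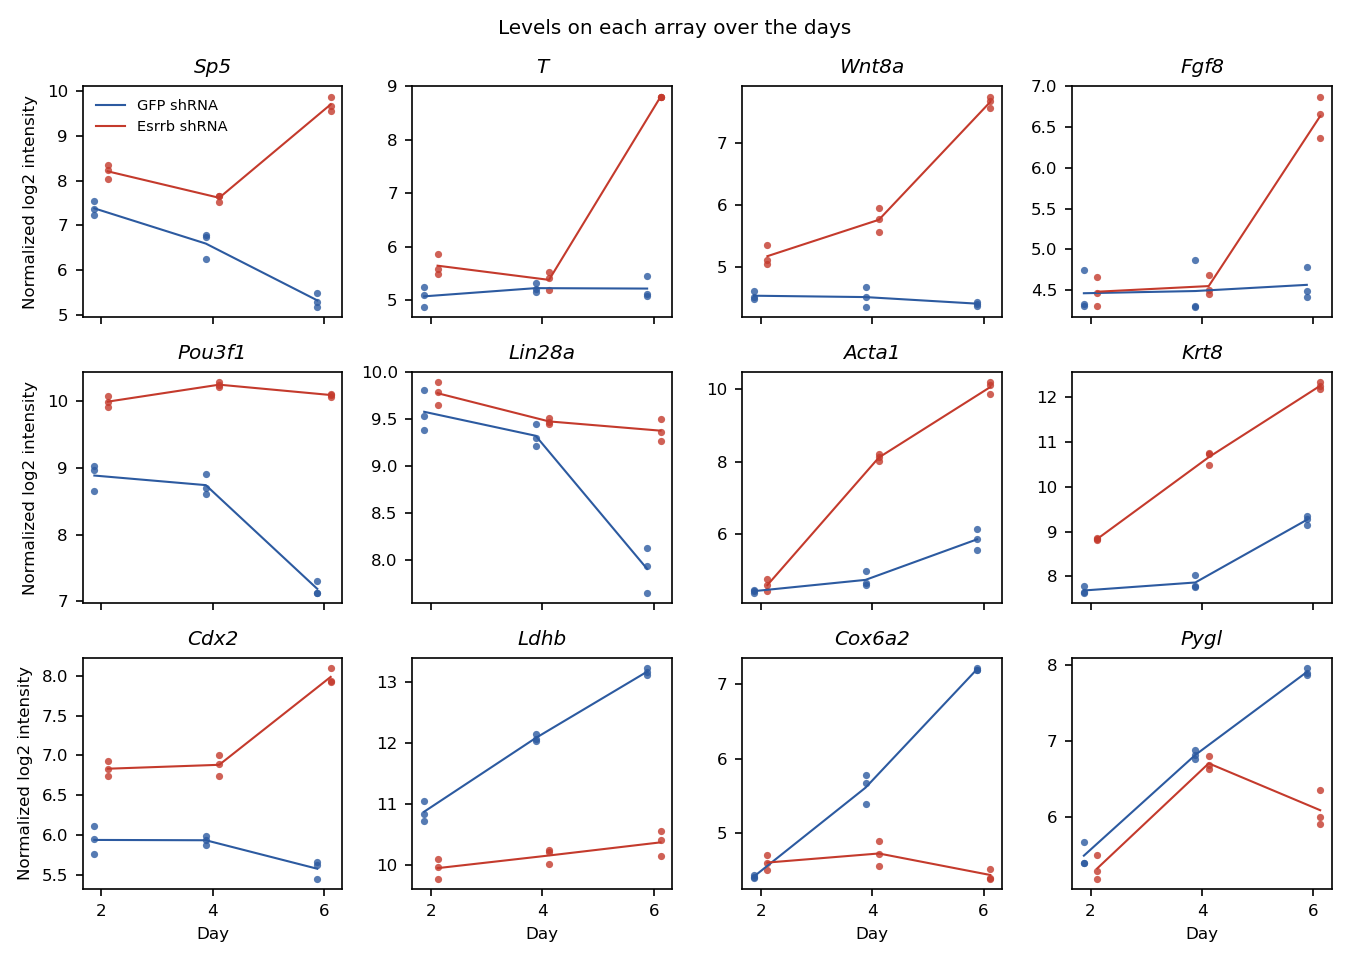
Normalized log2 intensity (vertical axes, scaled per gene) on each array at days 2, 4 and 6 (horizontal axes) for 12 genes. Red points and lines are Esrrb shRNA arrays and their means, blue ones GFP shRNA, with points shifted sideways for legibility. Fgf8 overlaps at days 2 and 4 and stands apart at day 6, Krt8 and Ldhb already stand apart at day 2, and Sp5, Pou3f1 and Lin28a are lower in control cells at day 6 than before.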

How the data were processed

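The deposited intensity of each probe is the mean over its beads, summarised with BeadStudio 3.2.6 per the submitters' processing notes, without normalization per the file headers. The deposited detection score is a fraction from 0 to 1 that rises with signal, so detection p was taken as 1 minus it, and the deposited bead number (another unit) had a median of 37. A second deposited table holds intensity values that the authors normalized by a method not given in the sources used here. Its rows could not be named, and it served for counts only.

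The neqc function of limma 3.58.1 (R 4.3.3) corrected background, added an offset of 16, normalized by quantiles and took log2. Of 46643 probes, 303 for non-mouse sequences were left out, and 19467 were detected (p under 0.05) throughout at least 1 group of 3. Each gene was read from its brightest probe over the 18 arrays, giving 14540 genes. RefSeq names (GRCm38.p6) matched 16079 of 34325 target names as symbols and 6654 as synonyms, 11565 were kept as given and 27 were not named. The 18 arrays entered 1 model of 6 groups, with Benjamini-Hochberg adjustment per contrast and two-sided tests. No control array is shared between days. For arrays, their number limits the precision. A group undetected on all 3 arrays was set, per array, to the higher of its own level and the lowest level detected there, and the fold is then given as "at least".

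Members and lists were chosen with earlier results of these data known. Named genes are Esrrb with Pou5f1, Nanog and Sox2, then the 15 largest rises and falls among called genes whose arrays do not overlap and that carry a gene name, up to 4 members per list with the lowest adjusted p, and the 5 largest differences between days in each direction. Per the file headers, the replicate number is the BeadChip, so same-numbered samples share one. Their deviations from the group means correlated at 0.136, 0.123 and 0.0791. Alternatives were 2 other scalings, 2 other filters, other uses of probes, the day 6 arrays alone, a replicate block, each BeadChip alone and leaving out each day 6 array. The fit was tested on simulated data. A few genes within the counts are not reported by name here.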

Additional observations from a re-analysis of the deposited data

Results flagged for a closer look

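The effect of the knockdown differed between day 6 and day 4 for 2081 genes and between day 6 and day 2 for 3664, by the test of the difference itself in limma. Among named genes reported here, the difference from day 4 was positive for T (3.43), Sp5 (3.37), Ccnd2 (2.03), Fgf8 (2.01) and Wnt8a (2.00). It was negative for Cox6a2 (-1.87), Pygl (-1.71), Dnaic1 (-1.70), Fam183b (-1.69) and Myl3 (-1.66). The difference from day 2 was positive for Acta1 (4.03), Sp5 (3.56), Acta2 (3.28) and T (3.01). It was negative for Cox6a2 (-2.94), Egln3 (-2.40), Ddit3 (-2.37), Fcgrt (-2.26) and Aurkc (-2.19). For Esrrb itself the difference from day 4 was 0.85, a smaller reduction at day 6. Some of these values rest on groups not detected above background and are fitted values, not bounds: Fgf8 and Wnt8a in control on all 3 days, Myl3 in control on all 3 days, Cox6a2 in knockdown on all 3 days and in control at day 2, Acta1 in both groups at day 2, and Acta2 in control at day 2. All values are differences of log2 fold changes with 3 arrays per group and day.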

How the results depend on the processing

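Of the 158 named genes called at day 6, 147 kept their call and direction in every refit in which they were tested. A gene removed by the stricter filter would count as kept. Single BeadChips, single probes and the authors' values were not part of this count, so the dim Esrrb probe given below did not enter it. The exceptions lost the call in some setting (Cenpa, Fbxw5, Mrpl28, Nanog, Pdia4, Rpl13, Rpl22, Sox2, Top2a and Xbp1), or changed sign: without the detection filter Nrcam, read from another probe, was -0.13 (adjusted p = 0.515). Tmem92 passed the threshold in 4 settings. Among counts of genes, those at least 2-fold higher and lower went from 392 and 459 to 169 and 189 without background correction, which leaves a constant signal in both groups. The authors' values gave 4662 higher of their 19467 brightest rows, which are not genes. Median centring left 415 genes more positive at day 6 than at day 4, in place of 899. For Esrrb, the dim probe gave -0.0196 and BeadChip 1 alone -2.18, against -1.87. The cause was not tested in these cases.

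Leaving out 1 of the 6 arrays gave 5118 to 5383 calls at day 6 (2430 to 2578 higher, 2688 to 2835 lower), 385 to 397 genes at least 2-fold higher, 450 to 476 at least 2-fold lower, and an Esrrb change of -1.96 to -1.71. It gave 1631 to 1955 calls against day 4 (702 to 862 positive, 929 to 1093 negative) and 3001 to 3334 against day 2 (1308 to 1455 positive, 1682 to 1879 negative). With the replicate block, which pairs arrays of 1 BeadChip, 6379 genes were called, and 2521 and 4169 for the differences from day 4 and day 2. The block ended no call among the named genes, and among list counts it moved heat shock rises from 1 to 3 and ribosomal falls from 3 to 5. Of the list medians under other settings 374 stayed within their spread over the 3 BeadChips and 81 moved further, and 7 lists with medians near 0 changed sign. Signal near background limits genes such as Ccn1 and Cldn7, which were detected on 1 of 3 control arrays.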

Other observations

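Pop4, a subunit of RNase P, showed the largest negative difference at day 6 without being called (log2 fold change -4.12, SE 1.87, limma adjusted p = 0.0866). It read 4.93, 4.72 and 5.05 in knockdown and 11.34, 4.88 and 10.83 in control, and over all 18 arrays it lay either between 4.72 and 5.31 or between 10.83 and 11.71. Fbxw5, described above, had a similar split, with 2 of 3 control arrays high at day 6. Both were singled out after their values were seen. Of the 303 probes for non-mouse sequences, 11 were detected on all 6 day 6 arrays, and none was detected on all 3 arrays of one group and on none of the other.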
